A study of Homo sapiens with 6 samples.

Results

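Chemokines, interleukins and targets of the transcription factor NF-kB were followed in KPL4 cells after loss of estrogen receptor beta (ERβ). KPL4 is a human cell line labelled as inflammatory breast cancer, an aggressive form of the disease. The set was a list of 41 genes, of which 40 had a value among the 33578 genes tested on the array. CSF2, the granulocyte-macrophage growth factor, had no probe set named for it alone and was not analysed here. Each gene was read from the probe set that carried its symbol and no other, and where several did so, from the one with the highest mean over all arrays. The compared cells were KPL4 with a knockout of ERβ, the product of ESR2 (genotype ER-beta Knockout, 3 arrays), and KPL4 of the genotype Control (3 arrays). Both were grown in the same medium with fetal bovine serum, HEPES, insulin and hydrocortisone, and neither received a treatment. Replicates are labelled biological, with no word on separate cultures, so p-values cover only the spread among these 6 arrays, part of which may be technical. How the knockout was made, from how many clones, and how the control line was handled are not in the labels.

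Chemokines are small secreted proteins that draw leukocytes and other cells along a gradient by acting on G protein-coupled receptors. NF-kB is a family of dimers of RELA, REL, RELB and the products of NFKB1 and NFKB2, held in the cytoplasm by inhibitors such as IκBα, the product of NFKBIA. Interleukin-1 and tumour necrosis factor release NF-kB, which binds kappaB sites in the promoters of many chemokine and cytokine genes and also induces its own brakes, among them NFKBIA and TNFAIP3. In inflammatory breast cancer, NF-kB activity and inflammatory cytokines are known features of the tumour cells.

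The kappaB sites just upstream of members are shown because such sites are where NF-kB acts on its target genes. RefSeq (GRCh38.p14) gave a promoter, the 250 bases before and 50 after a transcription start, for 30 of the 40 measured members, 46 starts in all. The 10-letter kappaB consensus was present in at least 1 promoter of 16 of these 30 members, and the shorter core GGNNTTTCC, which overlaps it, in 19 of 30. Both were searched on both strands. Among all 35116 RefSeq promoters, 11.3% held the consensus and 6.26% the shorter core. These shares count single promoters, whereas each member was counted once over all its starts, so the figures are not like for like. The list was composed around known NF-kB targets and the shorter core was picked with the CXCL8 site in mind, so a high share among members follows from these choices. Shown here are the 250 bases before the start, 5′ to 3′, of 5 members that fell in knockout cells (CCL20, CXCL10, IL32, TNFAIP3 and NFKB1) and of NFKBIA, which did not pass the test. Capitals mark kappaB matches and, in CXCL10 only, also the interferon response element core, searched on both strands and held by 3.57% of promoters.
CCL20: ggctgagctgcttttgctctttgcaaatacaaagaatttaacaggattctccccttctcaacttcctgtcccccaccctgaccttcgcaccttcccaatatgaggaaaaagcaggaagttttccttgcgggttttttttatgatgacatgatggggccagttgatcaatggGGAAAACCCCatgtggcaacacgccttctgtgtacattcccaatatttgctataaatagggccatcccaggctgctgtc
CXCL10: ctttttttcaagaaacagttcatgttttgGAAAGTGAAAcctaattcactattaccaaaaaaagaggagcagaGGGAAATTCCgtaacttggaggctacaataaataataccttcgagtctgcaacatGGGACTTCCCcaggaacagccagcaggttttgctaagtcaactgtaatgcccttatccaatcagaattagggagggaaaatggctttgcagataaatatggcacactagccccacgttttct
IL32: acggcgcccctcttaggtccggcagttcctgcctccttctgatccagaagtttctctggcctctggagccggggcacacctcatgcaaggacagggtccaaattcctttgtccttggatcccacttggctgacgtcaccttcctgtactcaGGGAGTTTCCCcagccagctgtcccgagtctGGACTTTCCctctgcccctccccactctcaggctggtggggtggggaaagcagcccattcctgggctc
TNFAIP3: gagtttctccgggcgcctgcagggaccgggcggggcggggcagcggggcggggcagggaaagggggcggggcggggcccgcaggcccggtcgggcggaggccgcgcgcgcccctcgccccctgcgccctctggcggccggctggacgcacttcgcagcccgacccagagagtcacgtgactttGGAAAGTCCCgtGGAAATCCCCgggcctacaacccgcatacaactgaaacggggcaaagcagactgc
NFKB1: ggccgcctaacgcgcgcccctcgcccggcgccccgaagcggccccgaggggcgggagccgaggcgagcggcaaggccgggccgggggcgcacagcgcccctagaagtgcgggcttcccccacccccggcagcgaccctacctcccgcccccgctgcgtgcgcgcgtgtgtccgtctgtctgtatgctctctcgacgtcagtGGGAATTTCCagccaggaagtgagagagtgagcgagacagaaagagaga
NFKBIA: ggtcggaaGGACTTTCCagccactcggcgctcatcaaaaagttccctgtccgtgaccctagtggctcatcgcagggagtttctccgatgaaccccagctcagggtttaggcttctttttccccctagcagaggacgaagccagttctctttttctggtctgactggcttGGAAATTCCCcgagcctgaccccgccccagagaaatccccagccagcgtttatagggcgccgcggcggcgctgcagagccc
These stretches lie at chr2:227813592-227813841 on the plus strand, chr4:76023498-76023747 on the minus strand, chr16:3065153-3065402 on the plus strand, chr6:137867009-137867258 on the plus strand, chr4:102501109-102501358 on the plus strand and chr14:35404750-35404999 on the minus strand. For IL32 and NFKB1, 2 starts were listed for each gene and the start that holds a match is shown. Counted from the start, the TNFAIP3 matches begin at -67 and -55 and the CCL20 match at -79.

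The 6 neighbouring CXC chemokine genes on chromosome 4 carry alike kappaB matches, shown in windows of 38 bases around GGAATTTCC, which all 6 share.
CXCL8: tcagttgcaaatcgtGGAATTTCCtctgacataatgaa
CXCL6: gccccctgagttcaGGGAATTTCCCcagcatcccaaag
CXCL1: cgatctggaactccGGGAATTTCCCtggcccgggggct
CXCL5: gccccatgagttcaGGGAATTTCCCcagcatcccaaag
CXCL3: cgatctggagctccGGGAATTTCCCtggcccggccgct
CXCL2: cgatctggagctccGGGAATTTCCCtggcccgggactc
The windows are at chr4:73740463-73740500 on the plus strand; chr4:73836574-73836611 on the plus strand; chr4:73869300-73869337 on the plus strand; chr4:73998745-73998782 on the minus strand, chr4:74038745-74038782 on the minus strand and chr4:74099250-74099287 on the minus strand. CXCL6 and CXCL5 had 37 of 38 bases in common and CXCL1 and CXCL3 35 of 38, whereas CXCL8 shared 16 to 19 of 38 with the other 5. The windows were lined up on GGAATTTCC, so those bases match in every pair by construction. CXCL8 held the shorter core and not the 10-letter consensus. A match describes letters only and does not show that a factor binds there in these cells.

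The arrays differed little in overall level, with a median log2 signal of 4.08 to 4.11 over 134748 probe sets. Within a group, arrays correlated at 0.995 to 0.997 across bright genes, and across the groups at 0.986 to 0.988 (Pearson's r), a description since genes are not independent replicates. A gene was called bright where its mean over the 6 arrays lay above 5.05, the median of tested genes, and dim otherwise, meaning that no signal over background could be shown. ESR2 itself was dim, at 3.90, 4.08 and 4.01 in knockout cells and 3.99, 3.69 and 4.16 in control cells, so the arrays do not check the knockout. Of 10 luminal epithelial markers 10 were bright, among them EPCAM at 17.51 in knockout and 17.46 in control cells. Of these 10, CLDN3, KRT19 and GATA3 rose, 0 fell and 7 did not pass, where 8.9% of all bright genes rose and 5.93% fell. In sign, 8 of the 10 differences were positive and 2 negative. ERBB2 and MUC1 were higher on all knockout arrays without passing (log2 differences of 0.37 and 0.33). KRT8 and KRT18 were lower on all knockout arrays without passing (-0.24 and -0.27), and EPCAM and CDH1 differed by 0.044 and 0.024. The list's mean was 12.46 to 12.54 on knockout arrays and 12.07 on each control array, and the bearing of these markers on the members was not tested. Of 14 leukocyte markers measured, 0 passed the test, and PTPRC, the pan-leukocyte phosphatase, was at 5.49 in knockout and 5.35 in control cells. Of the 14, 5 counted as bright, the highest being TYROBP at 5.93 in knockout and 6.10 in control cells. Bright genes at or below these levels were thus not shown to lie above background either. The mean over the leukocyte list was 4.71 to 4.78 on knockout arrays and 4.76 to 4.77 on control arrays. The precision of every value is limited by the number of arrays, 3 in each group.

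More members fell than rose in knockout cells. Of 40 measured members, 2 rose (IL18 and the IL-1 receptor IL1R1), 10 fell and 28 did not pass limma's test at an adjusted p of 0.05 over all genes. Across the array, 8.01% of genes were called, 4.81% higher and 3.21% lower. The 10 that fell were CCL20, CXCL8, CXCL10, ACKR3, CXCR4, IL1RN, IL32, CSF1, TNFAIP3 and NFKB1. Without knockout replicate 1 or 2 or control replicate 2, 6 members instead of 10 were called lower. The 12 calls were all among the 26 bright members and 0 among the 14 dim ones. Over all bright genes 14.8% were called, 8.9% higher and 5.93% lower. CXCL2 and CCL28 counted as bright through 1 group alone (control for CXCL2, knockout for CCL28), and neither was called. The median log2 difference, knockout minus control, was -0.14 over the 40 members and -0.39 over the 26 bright ones, against 0.022 over all tested genes and 0.056 over all bright genes. Groups did not overlap for 4 members higher and 15 lower in knockout cells, where 14.9% and 10.3% of all genes did the same, 25.3% in all. The members were chosen with earlier results of these data known. Their distance from the shares and medians of all genes is therefore no independent result.

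**Figure D1:**
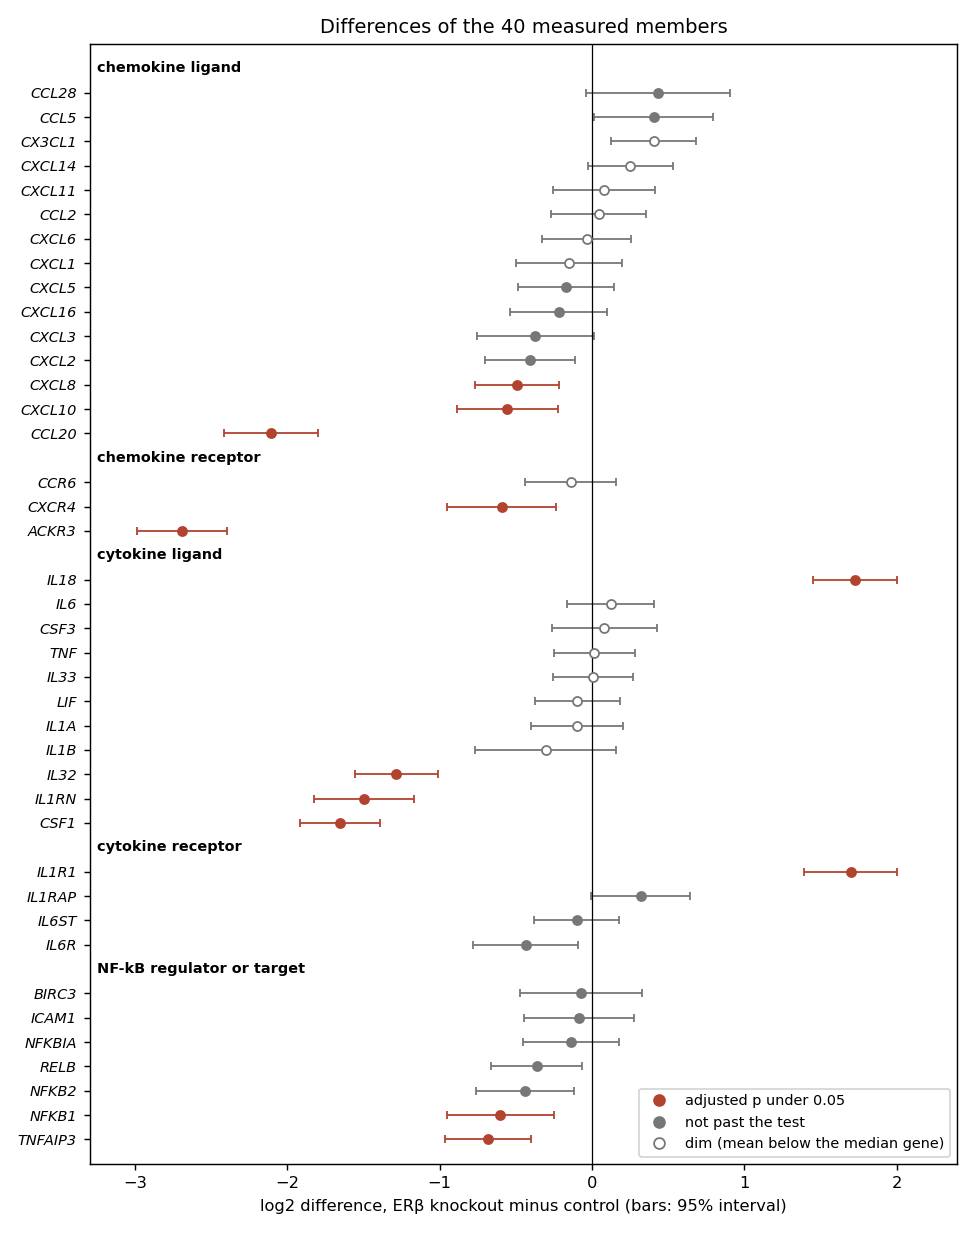
Log2 difference, knockout minus control, of the 40 measured members by role, with 95% intervals from limma; red points passed the test and open points are dim genes. ACKR3 at -2.69 and CCL20 at -2.11 lie farthest left, and IL1R1 at 1.70 and IL18 at 1.72 farthest right.

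Among 15 chemokine ligands, 3 fell, 0 rose and 12 did not pass, where 3.21% of all tested genes fell and 4.81% rose. CCL20, the sole chemokine ligand of CCR6 and a recruiter of dendritic and Th17 cells, had log2 signals of 14.71, 14.91 and 15.14 in knockout cells, against 17.10, 17.00 and 16.99 in control cells. Its 3 knockout arrays lay well below all control arrays, a 4.31-fold fall (log2 difference -2.11, SE 0.14, limma adjusted p = 7.0e-06). The control values exceed 16, beyond what a 16-bit scanner gives on a plain log2 scale. With values above 16 set to 16 the difference was -1.08 (adjusted p = 0.0063). That size follows from the cap, which sets all 3 control values to 16 and leaves the knockout values as they are. It does not test whether the values above 16 are right, and deposited values reached 19.92. Adjusted p ran from 1.5e-09 to 0.014 over the 16 alternatives, and CCL20 remained called in each. CCR6 was dim, with a mean of 4.43 in knockout and 4.57 in control cells.

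CXCL8, interleukin-8, attracts neutrophils and stood at 10.44, 10.30 and 10.57 in knockout cells and 10.98, 10.89 and 10.91 in control cells. The groups lay apart, by 1.41-fold (log2 difference -0.49, SE 0.13, adjusted p = 0.036). CXCL10, an interferon-induced ligand of CXCR3, was at 5.49, 5.51 and 5.48 in knockout cells and 5.88, 6.36 and 5.90 in control cells. All knockout values were lower, by 1.47-fold (log2 difference -0.56, SE 0.15, adjusted p = 0.046). The CXCL10 mean of 5.49 in knockout cells was no higher than that of the leukocyte marker PTPRC in the same cells. The CXCL10 mean of 6.05 in control cells was below that of TYROBP, another leukocyte marker, in control cells (6.10). Neither CXCL10 level was thus shown to lie above background, and the fold between the measured means is uncertain. Neither call was firm. CXCL8 was lost without any 1 array other than knockout replicate 3, with adjusted p of 0.048 to 0.16 over the 6 omissions, and CXCL10 without any 1 array, with 0.052 to 0.13. Over all alternatives adjusted p ran from 0.0100 to 0.60 for CXCL8 and from 0.022 to 0.51 for CXCL10.

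The CXC ligands that share the kappaB match with CXCL8 and bind CXCR2 were all lower in mean, but none passed. CXCL2 averaged 4.91 ± 0.047 in knockout and 5.32 ± 0.18 in control cells (SD, n = 3 each), a log2 difference of -0.41 (adjusted p = 0.099) without overlap of the groups. CXCL3 averaged 5.94 ± 0.0093 in knockout and 6.32 ± 0.37 in control cells (SD, n = 3 each), also without overlap (log2 difference -0.37, adjusted p = 0.26). For CXCL5, CXCL1 and CXCL6 the log2 differences were -0.17, -0.15 and -0.034, with overlapping groups. CXCL1, CXCL2 and CXCL3 are near-identical copies, so which of them a probe set measured is uncertain.

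The other chemokine ligands did not pass in either direction. CXCL16, a transmembrane chemokine that binds CXCR6, was bright in both groups, at 12.85, 12.92 and 13.02 in knockout and 13.40, 13.07 and 12.97 in control cells. These groups overlapped, and the 95% interval of the difference ran from -0.54 to 0.10. CCL5 (0.41), CCL28 (0.43) and CX3CL1, fractalkine (0.40), had positive log2 differences with adjusted p of 0.23, 0.30 and 0.083, and CXCL14 one of 0.25 (adjusted p = 0.30). CX3CL1 and CXCL14 were dim although their groups did not overlap. CXCL11, the interferon-induced neighbour of CXCL10, was dim and differed by 0.078 (adjusted p = 0.85). CCL2 was dim as well, with a difference of 0.044 (adjusted p = 0.91).

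Among the 3 chemokine receptors, ACKR3 and CXCR4 fell and CCR6 did not pass, where 3.21% of all tested genes fell. ACKR3 (CXCR7) binds CXCL12 and clears it from the cell's surroundings without G protein signalling. It was at 6.35, 6.13 and 6.39 in knockout cells, against 9.13, 8.90 and 8.92 in control cells. The separation was the widest of the members, 6.47-fold (log2 difference -2.69, SE 0.13, adjusted p = 8.4e-07), and adjusted p stayed between 1.1e-08 and 0.0094 over the alternatives. CXCR4, the signalling receptor for the same chemokine, was at 7.67, 7.58 and 7.44 in knockout cells and 7.81, 8.26 and 8.40 in control cells. Knockout replicate 1 lay only just below control replicate 1. The fall was 1.51-fold (log2 difference -0.59, SE 0.16, adjusted p = 0.0499), at the threshold itself. It was lost without any 1 array other than control replicate 1 (adjusted p of 0.014 to 0.16 over the 6 omissions) and ran from 0.014 to 0.48 over the alternatives.

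**Figure D2:**
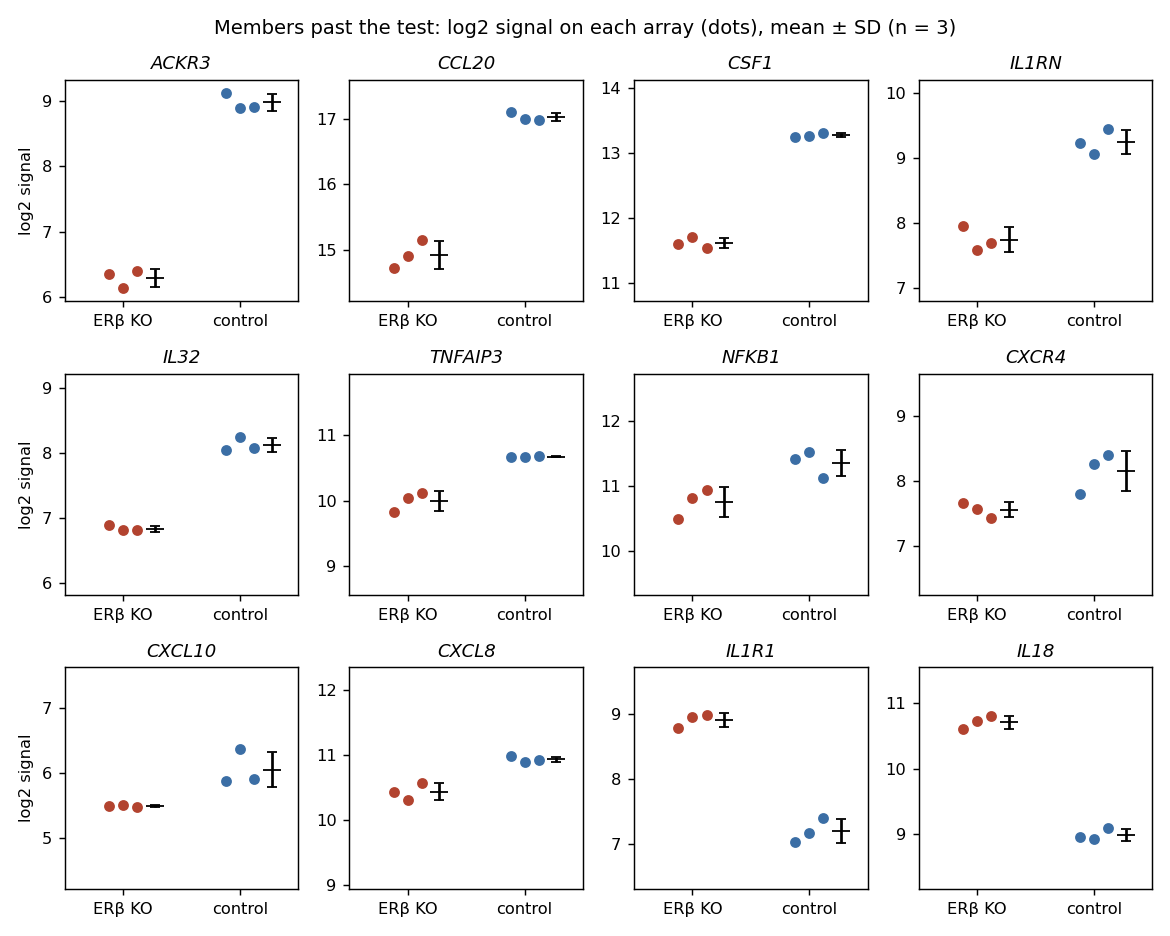
Log2 signal on each array of the 12 members that passed the test, with the 3 ERβ knockout arrays on the left and the 3 control arrays on the right of each panel; bars give mean ± SD (n = 3). ACKR3, CCL20, CSF1, IL1RN and IL32 lie far lower and IL1R1 and IL18 far higher in knockout cells, whereas CXCR4, CXCL8 and CXCL10 lie closer.

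In the interleukin-1 system a receptor rose while the receptor antagonist fell. IL1R1, the receptor that carries the IL-1 signal, was at 8.79, 8.95 and 8.98 in knockout cells, against 7.03, 7.18 and 7.40 in control cells. The knockout arrays were all higher, by 3.25-fold (log2 difference 1.70, SE 0.14, adjusted p = 2.5e-05). IL1RN, whose product occupies that receptor without signalling, was at 7.95, 7.59 and 7.69 in knockout cells and 9.22, 9.06 and 9.44 in control cells. It fell 2.83-fold with no overlap (log2 difference -1.50, SE 0.15, adjusted p = 0.00011). Both remained called in all 16 alternatives, with adjusted p up to 0.018 for IL1R1 and 0.033 for IL1RN. The agonists IL1A and IL1B were dim, with log2 differences of -0.098 (adjusted p = 0.77) and -0.30 (adjusted p = 0.49).

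IL1RAP, the accessory chain that joins IL1R1 in the active complex, averaged 7.21 ± 0.10 in knockout and 6.89 ± 0.24 in control cells (SD, n = 3 each) and did not pass (log2 difference 0.32, adjusted p = 0.25). Its pair of probe sets differed in sign: the dimmer one was at 4.26 in knockout and 4.51 in control cells. IL18, an IL-1 family cytokine released after inflammasome cleavage, was at 10.61, 10.73 and 10.80 in knockout cells, against 8.95, 8.93 and 9.09 in control cells. This 3.30-fold rise separated the groups completely (log2 difference 1.72, SE 0.13, adjusted p = 1.2e-05), and was called in every alternative (adjusted p up to 0.0097). IL33, the alarmin of the same family, was dim and differed by 0.0084 (adjusted p = 0.98).

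The IL-1 receptor genes lie side by side on chromosome 2, and 2 of 6 rose, where 4.81% of all tested genes did. After IL1R1 the second was IL1RL1, the IL-33 receptor, at 5.96, 5.92 and 5.26 in knockout cells, against 4.73, 4.36 and 4.79 in control cells (adjusted p = 0.0059). It counted as bright through the knockout arrays alone. The control values were not shown to lie above background. The knockout mean of 5.71 was below that of the leukocyte marker TYROBP in the same cells (5.93), so it was not shown to either. The 2.12-fold between the measured means is therefore uncertain. IL1R2, a decoy receptor for IL-1, differed by 0.44 without overlap and missed the threshold (adjusted p = 0.050287). IL18R1 and IL18RAP, the chains of the IL-18 receptor, differed by 0.12 and 0.10 (adjusted p = 0.69 and 0.73), and IL1RL2 by 0.11 (adjusted p = 0.84). In the IL-1 ligand cluster on the same chromosome IL1RN alone of 9 genes passed. These clusters were examined after the members' values were known.

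**Figure D3:**
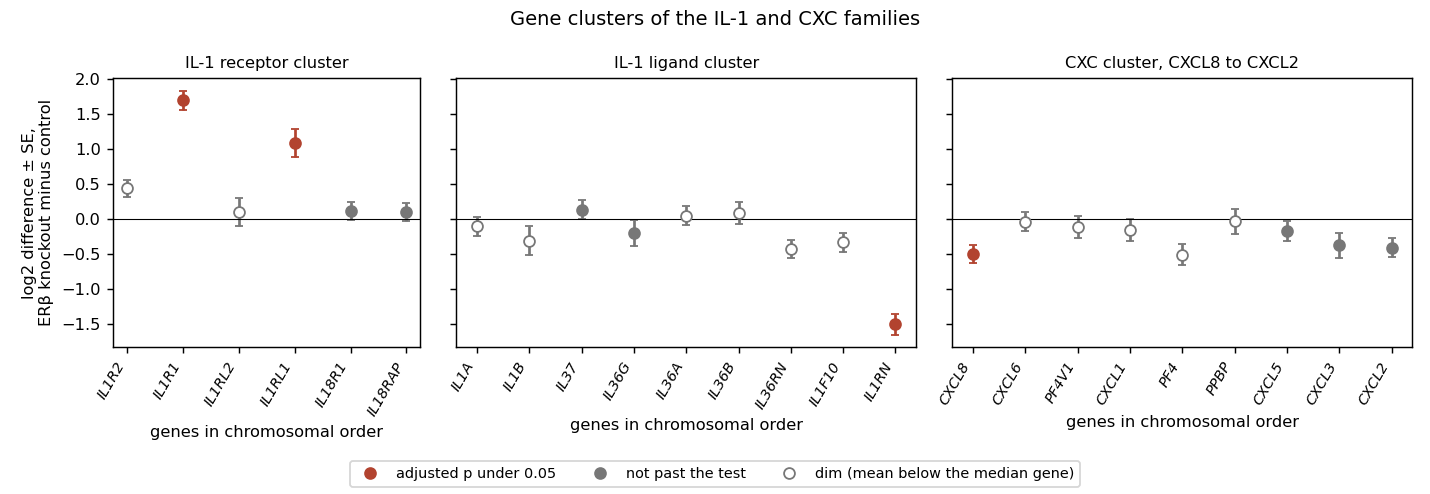
Log2 difference, knockout minus control, ± SE of genes in chromosomal order in the IL-1 receptor cluster, the IL-1 ligand cluster and the CXC chemokine cluster; red points passed the test and open points are dim genes. IL1R1 and IL1RL1 stand above 1, IL1RN at -1.50, and CXCL8 at -0.49 is the only called gene of its cluster.

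Of the other cytokines, CSF1 and IL32 fell. CSF1, the growth factor of macrophages, was at 11.61, 11.70 and 11.54 in knockout cells, against 13.25, 13.26 and 13.31 in control cells. The fall was 3.15-fold with tight groups (log2 difference -1.65, SE 0.12, adjusted p = 1.2e-05). CSF1R, its receptor, was dim, at 4.72 in knockout and 4.43 in control cells. IL32, an intracellular and secreted proinflammatory cytokine, was at 6.89, 6.81 and 6.82 in knockout cells and 8.05, 8.25 and 8.08 in control cells. It fell 2.44-fold (log2 difference -1.28, SE 0.12, adjusted p = 8.0e-05). CSF1 and IL32 remained called in all 16 alternatives, with adjusted p up to 0.0071 and 0.012.

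Several classical inflammatory cytokines were dim in this line. TNF had a mean of 3.08 in knockout and 3.07 in control cells, and IL6, LIF and CSF3 were dim too. Their log2 differences were 0.015 for TNF (adjusted p = 0.97), 0.12 for IL6 (adjusted p = 0.69), -0.097 for LIF (adjusted p = 0.75) and 0.082 for CSF3 (adjusted p = 0.84). For these dim genes a change below background could not be seen. IL6ST, the signal-transducing chain of the IL-6 family receptors, was bright, at 12.54, 12.75 and 12.80 in knockout cells and 12.76, 12.80 and 12.83 in control cells. It differed by -0.10, with a 95% interval from -0.38 to 0.18 and an adjusted p of 0.74. IL6R, the IL-6 binding chain, averaged 5.16 ± 0.25 in knockout and 5.59 ± 0.15 in control cells (SD, n = 3 each), with no overlap but no call (log2 difference -0.44, adjusted p = 0.13).

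Among the 7 NF-kB regulators and targets, TNFAIP3 and NFKB1 fell and none rose. All 7 were bright, and of all bright genes 5.93% were called lower and 8.9% higher. TNFAIP3 (A20), a ubiquitin-editing inhibitor of NF-kB, was at 9.82, 10.03 and 10.12 in knockout cells, against 10.67, 10.67 and 10.68 in control cells. The 1.60-fold fall (log2 difference -0.68, SE 0.13, adjusted p = 0.0070) remained called without any 1 array (adjusted p of 0.014 to 0.036) and was lost only when tested against a fold change of 1.2 (adjusted p = 0.095; 0.0011 to 0.095 over the alternatives). NFKB1, the p105 precursor of p50, was at 10.49, 10.81 and 10.94 in knockout cells and 11.41, 11.52 and 11.13 in control cells. Its 1.52-fold fall (log2 difference -0.60, SE 0.16, adjusted p = 0.042) was lost without knockout replicate 1 or 2 or control replicate 1 or 2. Adjusted p ran from 0.030 to 0.16 over the 6 omissions and from 0.0095 to 0.42 over all alternatives.

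NFKB2, the p100 precursor of p52, and its partner RELB were lower on all knockout arrays without passing. NFKB2 was at 9.44, 9.47 and 9.38 in knockout cells and 10.16, 9.73 and 9.71 in control cells (log2 difference -0.44, adjusted p = 0.10). RELB was at 5.58, 5.88 and 5.68 in knockout cells and 6.13, 5.93 and 6.16 in control cells (log2 difference -0.36, adjusted p = 0.15). NFKBIA, a textbook immediate target and inhibitor of NF-kB with kappaB matches in its promoter, was at 14.97, 14.64 and 14.62 in knockout cells, against 15.04, 14.80 and 14.80 in control cells. These groups overlapped, and the interval of the difference ran from -0.46 to 0.18 (adjusted p = 0.68). BIRC3, an apoptosis inhibitor, differed by -0.073 (interval -0.47 to 0.33, adjusted p = 0.89). ICAM1, the leukocyte adhesion receptor, differed by -0.086 (interval -0.45 to 0.28, adjusted p = 0.85). A miss of the threshold does not show that these levels are equal.

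KappaB matches stood in the promoters of members that fell and of members that did not pass. Of the 8 members that fell and had a promoter, 5 held the consensus and 8 the shorter core in at least 1 promoter. CXCL8, whose site guided the choice of the shorter core, is among these 8. ACKR3 and CSF1, which fell, and IL18, which rose, had no promoter to search. Of single promoters over all genes, 11.3% held the consensus and 6.26% the shorter core. Among the 21 uncalled members with a promoter, 11 held the consensus and 11 the shorter core, CXCL1, CXCL2, CXCL3, CXCL5, CXCL6, CXCL11, IL6, NFKBIA, NFKB2 and BIRC3 having both. IL1R1, which rose, had 4 starts with neither. IL1RN held the shorter core and the interferon response element core at 2 of its 3 starts. The promoter windows are short, and a missing match says nothing of sites elsewhere.

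Other genes of the same pathways, from lists that exclude the members, moved in both directions. Their counts stand beside 4.81% called higher and 3.21% called lower over all tested genes, and 14.8% called over all bright genes. Of 27 measured partner receptors and ligands, 3 rose (11.1%), 0 fell and 24 did not pass, and their median log2 difference was 0.097 against 0.022 over all tested genes. OSMR, which pairs with IL6ST to bind oncostatin M, rose 2.46-fold (9.83 in knockout and 8.53 in control cells, adjusted p = 0.00024). ACKR2, a scavenger of inflammatory CC chemokines, also rose 2.46-fold (9.46 in knockout and 8.16 in control cells, adjusted p = 0.00036), and the third was IL1RL1. Of 38 NF-kB signalling genes, 4 rose, 3 fell and 31 did not pass, with a median of -0.056. Called genes made up 10.5% higher and 7.89% lower of these 38, and 22.6% of the 31 bright ones. IRAK2, a kinase of the IL-1 and Toll-like receptor complex, rose 2.32-fold (adjusted p = 0.0014). TRAF3, a brake on the NFKB2 branch, rose 2.20-fold (adjusted p = 0.00038). LTBR, the lymphotoxin receptor, rose 1.84-fold (adjusted p = 0.026), a call lost without knockout replicate 1 or 3 or control replicate 2 (adjusted p of 0.015 to 0.10 over the 6 omissions; 0.0050 to 0.24 over the alternatives). TLR6 and TLR1, Toll-like receptors for bacterial lipopeptides, fell 2.58-fold and 1.99-fold (adjusted p = 0.00062 and 0.0016). These receptors are close copies and their probe sets may share transcripts. With all probe sets of TLR1 averaged, its difference was -0.53 instead of -0.99. IKBKE, a kinase of innate signalling, fell 1.77-fold (adjusted p = 0.0034). RELA differed by 0.38 (adjusted p = 0.085).

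Of 39 other NF-kB targets, 5 rose, 6 fell and 28 did not pass, with a median log2 difference of 0.019. Called genes made up 12.8% higher and 15.4% lower of these 39, and 37.9% of the 29 bright ones, against 8.01% of all tested and 14.8% of all bright genes. No test compared the list with other genes. The largest rises were acute phase and complement genes. C3, the central complement component, rose 6.06-fold (9.21 in knockout and 6.61 in control cells, adjusted p = 3.7e-06). CFB, factor B of the alternative pathway, rose 3.90-fold (adjusted p = 2.2e-05), and SAA1, serum amyloid A, 3.58-fold (adjusted p = 4.7e-05). The largest falls were TNFSF15, a TNF family ligand, at 2.10-fold (adjusted p = 0.00026), FAS, a death receptor, at 1.91-fold (adjusted p = 0.0031), and MYC, a growth regulator, at 1.87-fold (adjusted p = 0.0023). IL1RL1, IRAK2, TLR1, TLR6, IKBKE, FAS and MYC were lost only in an unmoderated test, with adjusted p of 0.058 to 0.15.

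Neighbouring genes moved with some members. For each member, the median log2 difference of its 24 nearest bright protein-coding genes, 12 on each side in RefSeq order, was taken as a description. Of all bright genes, 5.93% were called lower and 8.9% higher. Around CCL20 on chromosome 2 this median was -0.69, and 15 of the 24 neighbours fell. CCL20 was a further 1.42 lower on the log2 scale than its neighbours' median (difference of -1.42), yet within their range of -2.29 to 0.048. Around ACKR3, farther along the same chromosome, the median was -0.39 and 10 of 24 neighbours fell. ACKR3 was below the whole range of its neighbours, which ended at -1.01. How far the regional shift bears on CCL20 and ACKR3 was not tested.

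Around the other members that passed, the neighbours' median lay between -0.056 for CXCL8 and 0.24 for CSF1. CSF1, IL1RN and IL32 fell below the lowest of their neighbours (-0.44, -0.69 and -0.55), and IL1R1 and IL18 rose above the highest (1.34 and 0.85). CXCR4 was also below its neighbours' range, whose lowest value was -0.55. In that region 9 of 24 neighbours rose, where 8.9% of all bright genes did. TNFAIP3, NFKB1, CXCL8 and CXCL10 lay within the range of their neighbours. IL1RAP had a median of 0.68 around it on chromosome 3, where 15 of 24 neighbours rose, so its difference of 0.32 was smaller than the shift of the region.

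**Figure D4:**
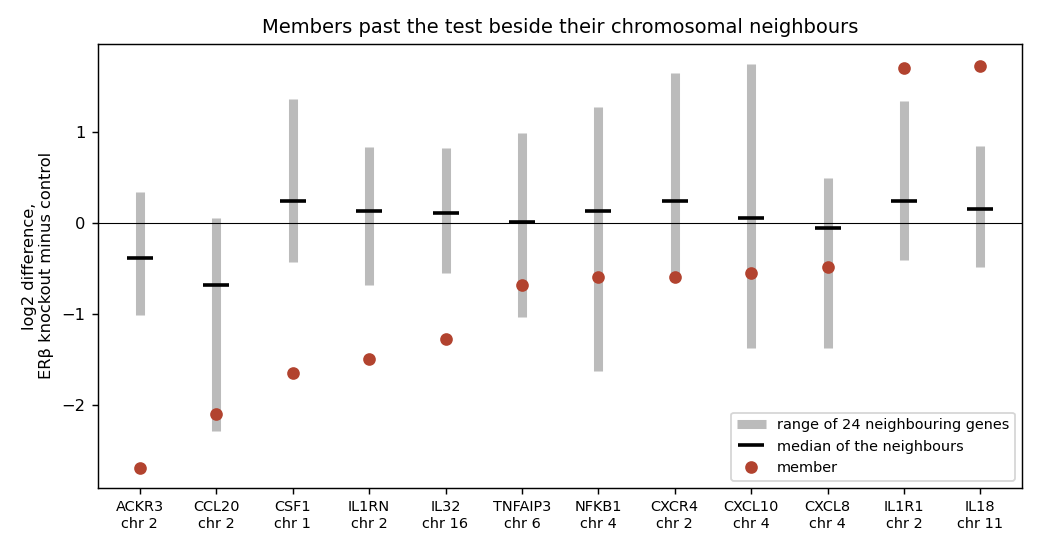
Log2 difference, knockout minus control, of the 12 members that passed (red points) beside the range (grey bars) and median (black dashes) of their 24 nearest bright protein-coding genes. The neighbours' median is -0.69 around CCL20 and -0.39 around ACKR3, and between -0.056 and 0.24 around the others.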

How the data were processed

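RNA of 3 ERβ knockout and 3 control samples was measured on Affymetrix expression arrays. The authors deposited log2 signal values, normalized with RMA in Transcriptome Analysis Console according to the submitters' processing notes. The array's genome build and tool versions are not given in the sources used here. By design, RMA makes the arrays' distributions alike, so a shift common to all genes would be removed. A share of 0.567% of values lay above 16. Of 134748 probe sets, 35528 had 1 symbol in the platform annotation, 1119 several and 98101 none, and only the first were used. For 1425 genes with several such probe sets the brightest was taken.

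The difference was fitted with limma 3.58.1 (R 4.3.3) using lmFit and eBayes, two-sided, and p-values were adjusted by Benjamini-Hochberg over 33578 genes with a threshold of 0.05. The fit had 4 residual and 6.84 prior degrees of freedom and was tested on simulated data with normal noise and changes placed in bright genes. There, 17.9% of log2 changes of 0.5 and 97% of changes of 1 were called, with 12 false calls among 155. Changes of 0.5 were thus mostly missed. The members and lists were chosen with earlier results of these data known. All members are accounted for, with values on each array for those called, and up to 3 higher and 3 lower called genes are named from each further list. Sequences are from RefSeq, GRCh38.p14. Same-numbered arrays did not deviate together (correlations of -0.019, -0.010 and -0.030), so no pairing was used. Alternatives covered probe set choice, brightness, scaling, moderation, the top of the scale, a replicate block and leaving out each array.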

Additional observations from a re-analysis of the deposited data

How the results depend on the processing

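Of the 12 members that passed, CCL20, ACKR3, IL1RN, IL1R1, IL18, IL32 and CSF1 were called in all 16 alternatives, and 5 were lost in at least 1 (TNFAIP3, CXCL8, CXCL10, CXCR4 and NFKB1). IL1R1 and IL18 were the 2 members called higher in every alternative. Those called lower, 10 in the reported setting, numbered 6 with an unmoderated test, 5 when tested against a fold change of 1.2, 6 with a replicate block and 6 to 8 without 1 array (6 without knockout replicate 1 or 2 or control replicate 2). They numbered 7 with values above 16 set to 16, 9 after repeated quantile normalization and 11 among bright genes, where the added CXCL2 counted as bright through its control values alone. The calls lost with values above 16 set to 16 were CXCL10, CXCR4 and NFKB1. These members had no value above 16, and their log2 differences did not change. The moderation and the adjustment of p draw on all genes, and in that setting 2220 genes were called in all. Over all genes, 2691 calls (1614 higher, 1077 lower) became 1086 (649 and 437) with an unmoderated test and 1081 (636 and 445) against a fold of 1.2. Without 1 array they were 1668 to 2266 (1008 to 1378 higher, 660 to 925 lower), lowest without knockout replicate 2; without knockout replicate 1, 1044 were higher. With a replicate block they were 2303, although the numbers do not pair the arrays. NF-kB signalling genes called higher, 4 in the reported setting, numbered 1 unmoderated, and 2 against a fold of 1.2 or without knockout replicate 1 or 3 or control replicate 2. The 3 signalling genes called lower became 0 unmoderated, and the 6 other NF-kB targets called lower became 2 unmoderated and 4 at the fewest elsewhere. Differences near 0 of uncalled members changed sign without 1 array, over these ranges: CCL2 -0.047 to 0.13, CXCL6 -0.12 to 0.017, CXCL11 -0.072 to 0.20, IL1A -0.16 to 0.017, IL33 -0.018 to 0.039, CSF3 -0.068 to 0.22, TNF -0.032 to 0.058, BIRC3 -0.24 to 0.052 and ICAM1 -0.24 to 0.064. The cause was not tested, beyond the omissions having fewer arrays. The 14 dim members were not shown to lie above background.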

Other observations

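Genes outside the list that lie in the same clusters or bind the same receptors were read after the members' values were known. CXCL12, the ligand shared by ACKR3 and CXCR4, averaged 5.65 ± 0.13 in knockout and 5.44 ± 0.23 in control cells (SD, n = 3 each, limma adjusted p = 0.49). MIF, which also binds CXCR4, was bright in both groups, at 12.39 in knockout and 12.59 in control cells (adjusted p = 0.48). In the CXC cluster PF4, platelet factor 4, was dim and lower on all knockout arrays (log2 difference -0.50, adjusted p = 0.061). In the IL-1 ligand cluster IL36RN, the IL-36 receptor antagonist and a close relative of IL1RN, was dim and differed by -0.43 without overlap (adjusted p = 0.072). IL37 differed by 0.14 (adjusted p = 0.67).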
